A study of Sus scrofa with 12 samples.

Results

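DEFB1 encodes a beta-defensin, a small cationic peptide that epithelia release against microbes, and CCL28 encodes a chemokine of mucosal epithelium. The 3 probe sets described here are all those of the array whose annotation gives DEFB1 (2 probe sets) or CCL28 (1 probe set) as the only gene symbol, out of 23999 probe sets tested. The symbol DEFB1 covered 2 different genes. One probe set carries the gene identifier 404699, for which RefSeq lists the synonym PBD-2 (porcine beta-defensin 2), and the other carries the gene identifier 396819, with the synonym PBD-1 (porcine beta-defensin 1). They are called PBD-2 and PBD-1 below, because a value for "DEFB1" would mix them. The CCL28 probe set carries the identifier 554303. The pair of symbols had been chosen by their measured difference between pregnant and non-pregnant sows in these arrays.

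The tissue was endometrium of the pig (Sus scrofa), the lining of the uterus with epithelium and the layers beneath it but without the muscle layer, taken on Day 14 after insemination. The 12 sows formed 4 groups of 3: pregnant Yorkshire, pregnant Landrace, non-pregnant Yorkshire and non-pregnant Landrace. Pregnant sows had conceived after insemination, while the non-pregnant sows had been inseminated with inactivated semen, so both arms had received an insemination. All uteri were flushed before the tissue was taken, and 1 Affymetrix array was hybridised per sow. Values are log2 expression values, so a difference of 1 is a doubling.

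Beta-defensins bind to and disrupt microbial membranes, and some also attract immune cells. CCL28 is known from other mucosae, such as the mammary gland, as the signal that draws antibody-secreting cells bearing the receptor CCR10, and it also binds CCR3 and can itself kill microbes. The IgA that such cells release is carried across the epithelium by the receptor PIGR. The uterine epithelium on these days meets the elongating conceptus before the placenta has formed.

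Of the arrays, 3 stood apart. On the first principal component (36.8% of the variance), non-pregnant Landrace sow 7 lay at 20.4, with the other non-pregnant sows at -42.3 to -8.15. Pregnant Yorkshire sow 12 lay at -18.9, with the other pregnant sows at 15.5 to 43.8. On the second (17.3%), sow 7 lay at 43.5, away from the other non-pregnant sows. It also had the highest mean of the macrophage, leucocyte, neutrophil and gland marker lists of all 12 sows. The neutrophil list had 2 measured markers, ELANE at 5.02 to 5.53 and FCGR3A at 7.98 to 11.04 over the 12 sows. Of the 5 measured gland markers, MMP7 had the widest range, 3.42 to 9.65. The array most like that of pregnant Yorkshire sow 12 was non-pregnant sow 11, and the array most like that of pregnant Landrace sow 8 was non-pregnant sow 5. In turn, the array most like that of sow 11 was sow 12. The medians of the 12 arrays lay between 6.252 and 6.305. Values without these sows are given beside the results they moved most.

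PBD-2 was the probe set with the most negative pregnancy difference of all 23999. In non-pregnant Yorkshire sows its log2 values were 11.48 in sow 1, 11.81 in sow 3 and 11.20 in sow 11. In non-pregnant Landrace sows they were 11.09 in sow 5, 8.25 in sow 7 and 11.17 in sow 9. Thus 5 of the 6 non-pregnant sows lay within a narrow band above 11, and sow 7 lay far below them. In pregnant Yorkshire sows the values were 7.36 in sow 2, 8.11 in sow 4 and 11.07 in sow 12. In pregnant Landrace sows they were 6.37 in sow 6, 6.98 in sow 8 and 8.56 in sow 10. The groups overlapped through sows 7, 10 and 12: sow 12 lay just under the band of the non-pregnant sows, and sow 10 lay above sow 7. Of the 6 pregnant sows, 4 lay below every non-pregnant sow.

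PBD-2 averaged 8.08 ± 1.66 over the pregnant sows and 10.83 ± 1.29 over the non-pregnant ones (SD, n = 6 each). The difference was -2.76 ± 0.66 (SE from the limma fit with breed as a term), a fold of 6.77 toward lower levels in pregnancy. Since this contrast chose the genes, the pregnancy difference is a description and carries no test, here and for the other 2 probe sets. Over all probe sets, 3.94% were called lower in pregnancy, and 1.4% had all pregnant sows below all non-pregnant ones; none of the 3 described here was in the latter share. The 4 groups ran in the order non-pregnant Yorkshire (11.50 ± 0.306), non-pregnant Landrace (10.17 ± 1.66), pregnant Yorkshire (8.85 ± 1.96) and pregnant Landrace (7.30 ± 1.13; SD, n = 3 each). Each neighbouring pair in that order differed by less than the larger of its 2 SDs. Within Yorkshire sows the pregnancy difference was -2.65. With 1 sow left out it ran from -3.76 (without sow 12) to -1.90 (without sow 2). Within Landrace sows the difference was -2.87, and it ran from -3.83 (without sow 7) to -2.37 (without sow 9).

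**Figure D1:**
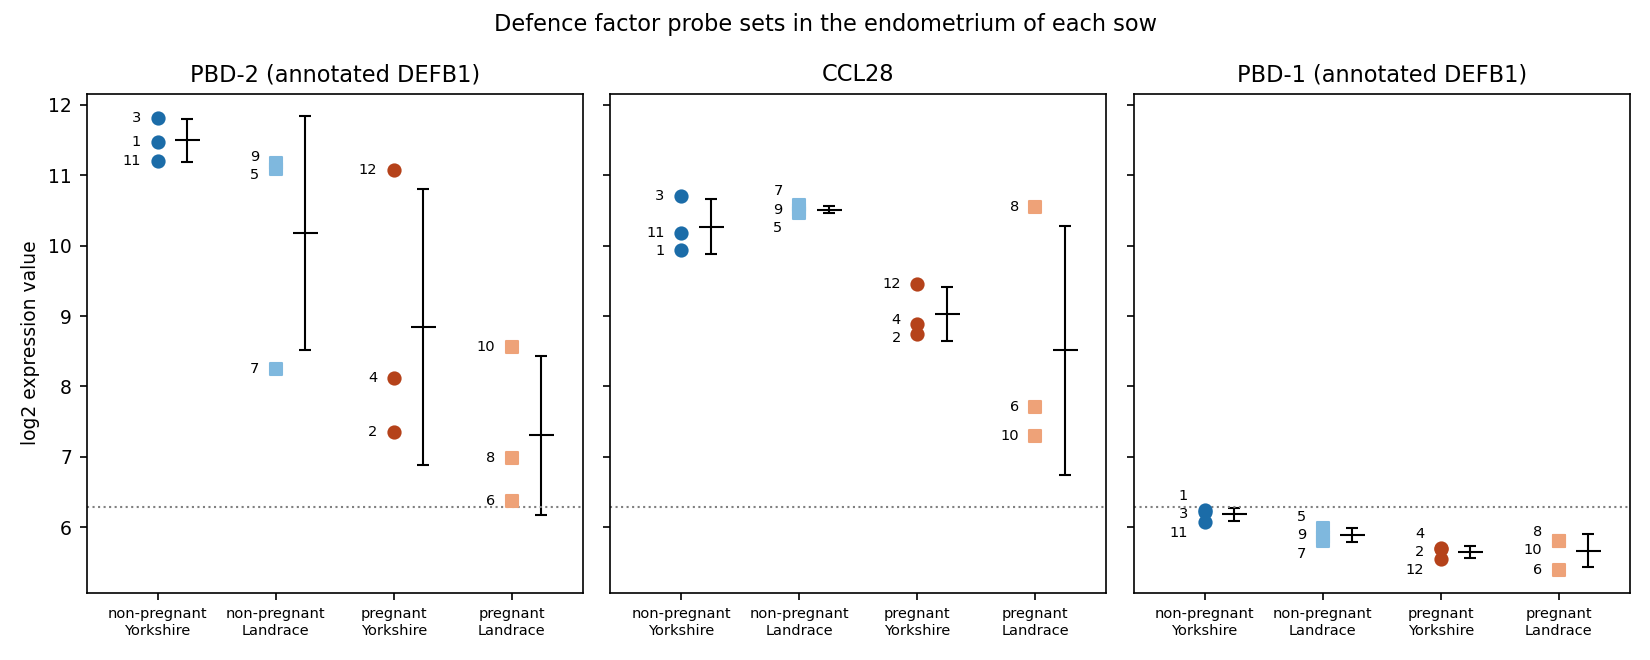
Log2 expression values (y axis) of the PBD-2, CCL28 and PBD-1 probe sets in each sow, by group (x axis, 3 sows each); numbers are sows, bars are mean ± SD, and the dotted line is the middle of the array medians, which lay between 6.252 and 6.305. For PBD-2, non-pregnant sow 7 (8.25) and pregnant sow 12 (11.07) lie with the opposite arm, for CCL28 pregnant sow 8 (10.55) does, and PBD-1 stays below the dotted line in all 12 sows.

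The size of the PBD-2 difference depended on which sows were counted, and its sign did not in any fit run. Leaving out 1 sow at a time gave -3.27 (without sow 12) to -2.44 (without sow 2). Without sows 7 and 12 together it was -3.80 ± 0.35, and without sows 7, 8 and 12 it was -3.72 ± 0.37 (SE). These 2 settings were chosen after the arrays had been seen.

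PBD-1 moved in the same direction by a much smaller amount, at values that lay below the median of their own array in every sow. In non-pregnant Yorkshire sows the log2 values were 6.25 in sow 1, 6.22 in sow 3 and 6.08 in sow 11. In non-pregnant Landrace sows they were 5.99 in sow 5, 5.80 in sow 7 and 5.87 in sow 9. The 3 Landrace values all lay below the 3 Yorkshire values, as was so for 11.4% of all probe sets. In pregnant Yorkshire sows the values were 5.70 in sow 2, 5.71 in sow 4 and 5.55 in sow 12. In pregnant Landrace sows they were 5.39 in sow 6, 5.81 in sow 8 and 5.80 in sow 10. Pregnant sows 8 and 10 overlapped with non-pregnant sow 7, and the other 4 pregnant sows lay below all 6 non-pregnant ones.

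PBD-1 averaged 5.66 ± 0.162 over the pregnant sows and 6.03 ± 0.183 over the non-pregnant ones (SD, n = 6 each). The difference was -0.37 ± 0.09 (SE), a fold of 1.30, and 1359 of the 23999 probe sets had a more negative one. In so low a range background makes up much of the signal, and fold changes come out too small. The 4 groups ran from non-pregnant Yorkshire (6.18 ± 0.0899) through non-pregnant Landrace (5.89 ± 0.0989) to pregnant Landrace (5.67 ± 0.240) and pregnant Yorkshire (5.65 ± 0.0873; SD, n = 3 each). The last 2 did not differ beyond their spread, and non-pregnant and pregnant Landrace sows overlapped. With 1 sow left out at a time the pregnancy difference ran from -0.42 to -0.33.

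The 2 other measured beta-defensins of the list did not pass the test in pregnancy. DEFB110 had log2 values of 3.36 to 3.95 over the 12 sows and DEFB125 had 3.24 to 3.83, both within the lowest 14.6% of the probe sets of each array. Their pregnancy differences were -0.06 ± 0.09 and 0.01 ± 0.10 (SE), with adjusted p-values of 0.754 and 0.974 (limma, Benjamini-Hochberg over all 23999 probe sets, as in every test below). DEFB113, which was on no list and was looked up afterwards, ran from 4.34 to 5.02. At such levels an absent transcript and a weak one cannot be told apart.

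CCL28 was lower in 5 of 6 pregnant sows than in any non-pregnant sow. In non-pregnant Yorkshire sows the log2 values were 9.93 in sow 1, 10.70 in sow 3 and 10.18 in sow 11. In non-pregnant Landrace sows they were 10.46 in sow 5, 10.57 in sow 7 and 10.51 in sow 9. All 6 lay close together, sow 7 among them, unlike for PBD-2. In pregnant Yorkshire sows the values were 8.74 in sow 2, 8.88 in sow 4 and 9.46 in sow 12. In pregnant Landrace sows they were 7.70 in sow 6, 10.55 in sow 8 and 7.30 in sow 10. Sow 8 lay within the range of the non-pregnant sows, while the other 2 pregnant Landrace sows were the lowest of the 12.

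CCL28 averaged 8.77 ± 1.18 over the pregnant sows and 10.39 ± 0.285 over the non-pregnant ones (SD, n = 6 each). The difference was -1.62 ± 0.45 (SE), a fold of 3.07, and 29 probe sets had a more negative one. The 4 groups ran in the order non-pregnant Landrace (10.51 ± 0.0545), non-pregnant Yorkshire (10.27 ± 0.394), pregnant Yorkshire (9.03 ± 0.381) and pregnant Landrace (8.52 ± 1.77; SD, n = 3 each). The 2 non-pregnant groups overlapped, as did the 2 pregnant ones, while the 2 Yorkshire groups differed by more than either SD. The difference was -1.24 within Yorkshire sows. Within Landrace sows it was -1.996, or -3.01 without sow 8 and -1.39 without sow 10. Over both breeds it was -2.03 without sow 8, -1.31 without sow 10 and -2.15 ± 0.28 (SE) without sows 7, 8 and 12.

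**Figure D2:**
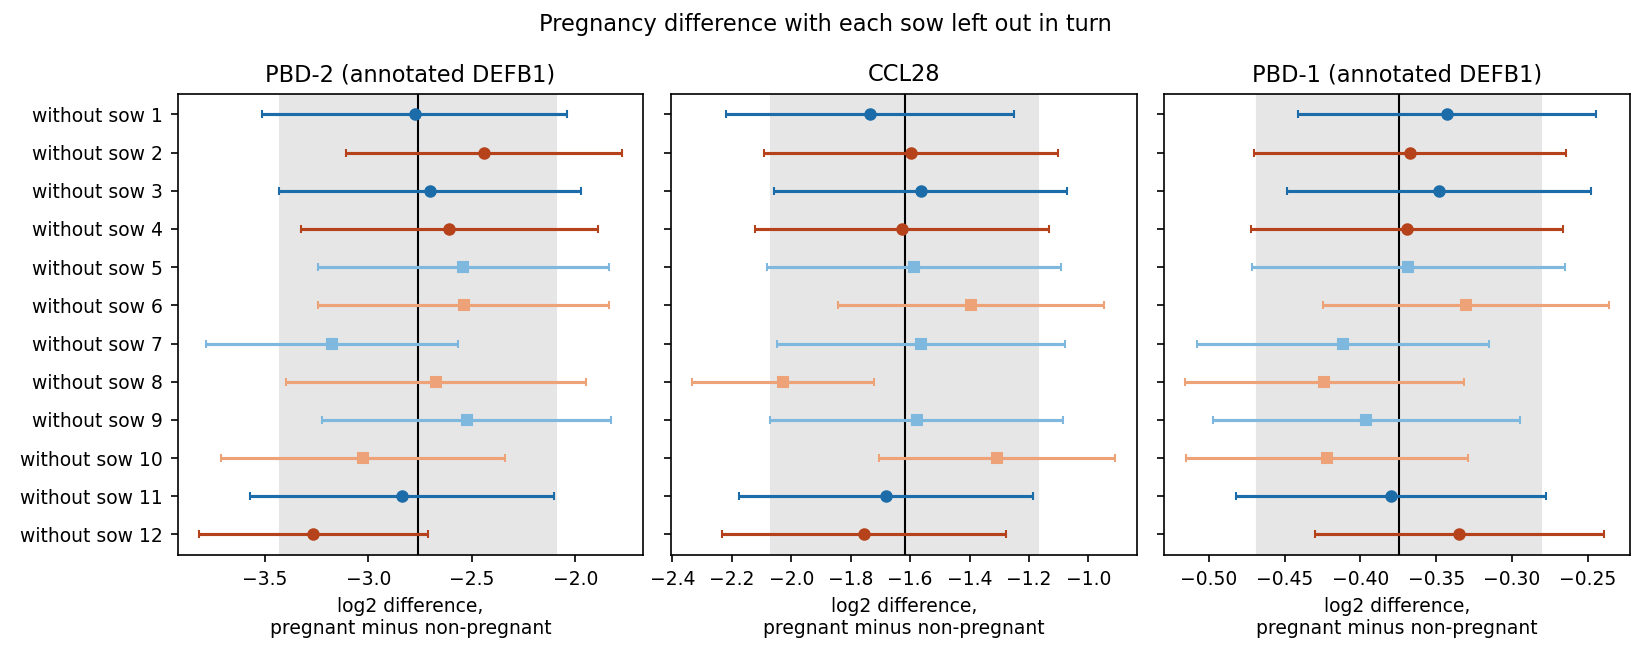
Pregnancy difference (x axis, log2, pregnant minus non-pregnant; each panel has its own scale) of PBD-2, CCL28 and PBD-1 with the sow named on the y axis left out. Points are the refitted differences with SE bars, colours and shapes are the group of the omitted sow as in the plot of values by sow, and the black line with grey band is the difference with its SE over all 12 sows. PBD-2 ranges from -3.27 to -2.44, CCL28 from -2.03 to -1.31 and PBD-1 from -0.42 to -0.33.

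PBD-2 and CCL28 were both lower in pregnancy, but the sows that departed from their arm were different ones. Sow 7 was low in PBD-2 and not in CCL28, and sow 8 was high in CCL28 and not in PBD-2. Sow 12 stood with the non-pregnant sows in PBD-2 and was the highest of the pregnant Yorkshire sows in CCL28. Sow 10 had the lowest CCL28 value of all and the highest PBD-2 value of the pregnant Landrace sows. After the 4 group means were removed, the correlation between PBD-2 and CCL28 over the 12 arrays was 0.01 (Pearson r, a description with no test). Between PBD-1 and PBD-2 it was 0.21, and between PBD-1 and CCL28 it was 0.26.

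**Figure D3:**
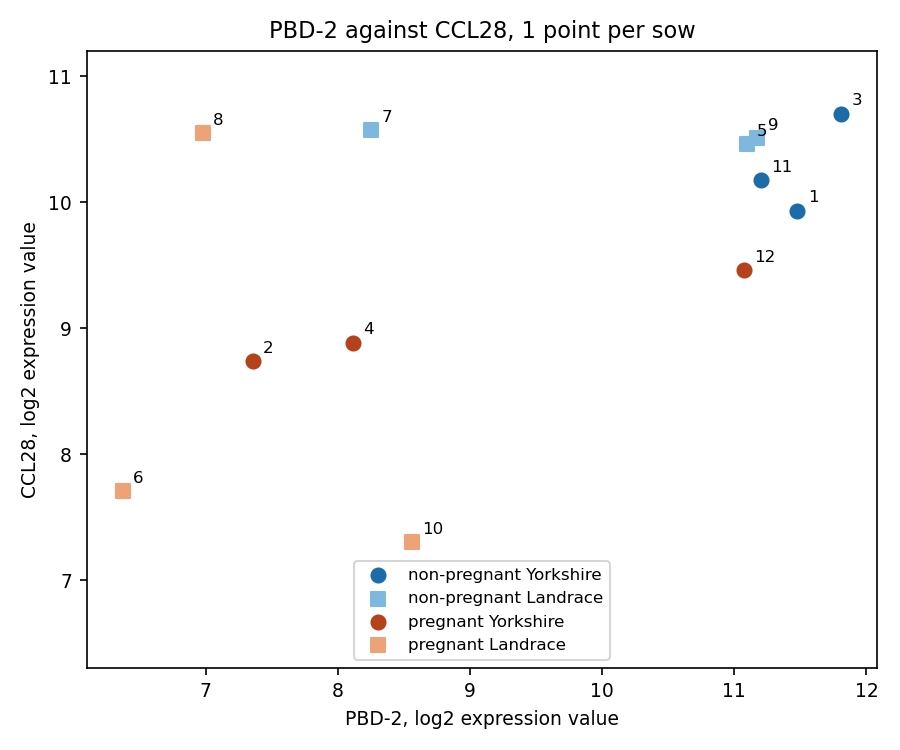
PBD-2 (x axis) against CCL28 (y axis), log2 expression values, 1 point per sow with its number and its group by colour and shape. Of the non-pregnant sows 5 lie together at the upper right; sows 7 and 8 lie at the upper left, low in PBD-2 (8.25 and 6.98) and high in CCL28 (10.57 and 10.55).

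The comparison of the breeds was not used to choose the genes and could be tested. For breed, 5.15% of all probe sets passed an adjusted p under 0.05, and 0 of the 3 described here did. An unadjusted p under 0.05 (limma) was found for 4842 of the 23999 probe sets and for 0 of the 3. PBD-2 was 1.43 lower on average in Landrace (8.74 ± 2.02) than in Yorkshire sows (10.17 ± 1.92; SD, n = 6 each), with an adjusted p of 0.253. The 95% interval of the Landrace minus Yorkshire difference ran from -2.88 to 0.01. With 1 sow left out the difference ran from -1.75 (without sow 2) to -0.93 (without sow 12). Sow 7 was the lowest non-pregnant Landrace sow and sow 12 the highest pregnant Yorkshire sow. Leaving both out, a choice made after the arrays had been seen, therefore had to move the difference upward. It was then -0.40 (adjusted p = 0.644). For CCL28 the difference was -0.13 (interval -1.11 to 0.84, adjusted p = 0.910), and for PBD-1 it was -0.14 (interval -0.34 to 0.06, adjusted p = 0.454).

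Within the pregnant sows, 0.733% of probe sets differed between breeds, and within the non-pregnant sows 1.04% did. In pregnant sows the Landrace minus Yorkshire difference was -1.54 for PBD-2 (adjusted p = 0.588), -0.51 for CCL28 (0.838) and 0.02 for PBD-1 (0.980). The CCL28 difference turned on single pregnant Landrace sows. Without sow 8 it was -1.53 with an adjusted p of 0.0279, and without sow 10 it was 0.10 (adjusted p = 0.988). Without sows 7, 8 and 12 it was -1.31 (adjusted p = 0.0258). In non-pregnant sows the difference was -1.32 for PBD-2 (adjusted p = 0.601), 0.24 for CCL28 (0.911) and -0.30 for PBD-1 (0.296). For PBD-1 the unadjusted p was 0.0324, and its lack of overlap was shared by 11.4% of probe sets.

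Whether the pregnancy difference itself differed between the breeds was tested as an interaction. No probe set of the array was called, a percentage of 0.0. Of the 23999, 963 had an unadjusted p under 0.05 (limma), and none of the 3 described here was among these. The pregnancy difference in Landrace minus that in Yorkshire sows was -0.22 for PBD-2, with a 95% interval of -3.26 to 2.82. It was -0.75 for CCL28 (-2.75 to 1.24) and 0.31 for PBD-1 (-0.06 to 0.69). The adjusted p was 0.9996 for each, and for PBD-2 and CCL28 the intervals include differences of more than 1 in either direction.

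Markers of epithelium were set beside the 3 genes, since in bulk tissue fewer cells of a type and less RNA per cell cannot be told apart. Of 12 epithelial markers, 11 were measured, and EPCAM, CDH1 and KRT8 were among the bright probe sets of every array. The mean over the list was 9.74 to 9.97 in non-pregnant and 9.32 to 10.02 in pregnant sows. In pregnancy 1 of the 11 rose (MUC1) and 2 fell (KRT8 and CLDN7), where 4.58% of all genes rose and 7.48% fell. Of 5 measured gland markers 2 rose, ACP5 (uteroferrin) by 1.05 and PROM1 by 0.48, with list means of 7.21 to 8.73 in non-pregnant and 7.63 to 8.15 in pregnant sows. Taken relative to the epithelial mean of the same array, the pregnancy difference of PBD-2 was -2.55, that of CCL28 was -1.41 and that of PBD-1 was -0.16.

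Markers of other cells moved with the arms or with single sows. Of 9 endothelial markers 6 rose, with list means of 6.43 to 7.001 in non-pregnant and 7.07 to 7.67 in pregnant sows, and of 8 stromal markers 4 rose and 1 fell, beside the same shares of all genes. Their means were 9.49 to 10.06 in non-pregnant and 9.75 to 10.36 in pregnant sows. The macrophage mean (4 of 6 markers measured, 0 called) was 9.19 in sow 7 and at most 6.51 in the other non-pregnant sows, and it was 6.72 to 7.07 in pregnant sows. The conceptus trophoblast list (12 of 14 measured, 0 risen and 1 fallen) had a mean of 6.68 in pregnant sow 10 and of 5.29 to 5.56 in non-pregnant sows. Sow 7 thus had the highest macrophage mean and the lowest non-pregnant PBD-2 value, and sow 10 the highest trophoblast mean and the lowest CCL28 value. The part of these cells in the results was not tested.

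The genes around the 3 factors were followed in 9 lists: other beta-defensins, other antimicrobial proteins, receptors and homing signals, epithelial chemokines, IgA and antibody-secreting cells, microbe sensing, inducing cytokines, hormone receptors and thioredoxins. Of 208 names, 98 genes were measured besides DEFB1 and CCL28. In pregnancy 2 rose (S100A9 and TXNIP) and 2 fell (IL1A and ESR1), against 4.58% of all genes that rose and 7.48% that fell. With these 4 counted, 18 of the 98 had an unadjusted p under 0.05 (limma), beside 5574 of all 23999 probe sets. That background also applies to the unadjusted pregnancy counts of the single lists below. The median difference of the 98 was 0.01, beside -0.03 for all 6765 genes.

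**Figure D4:**
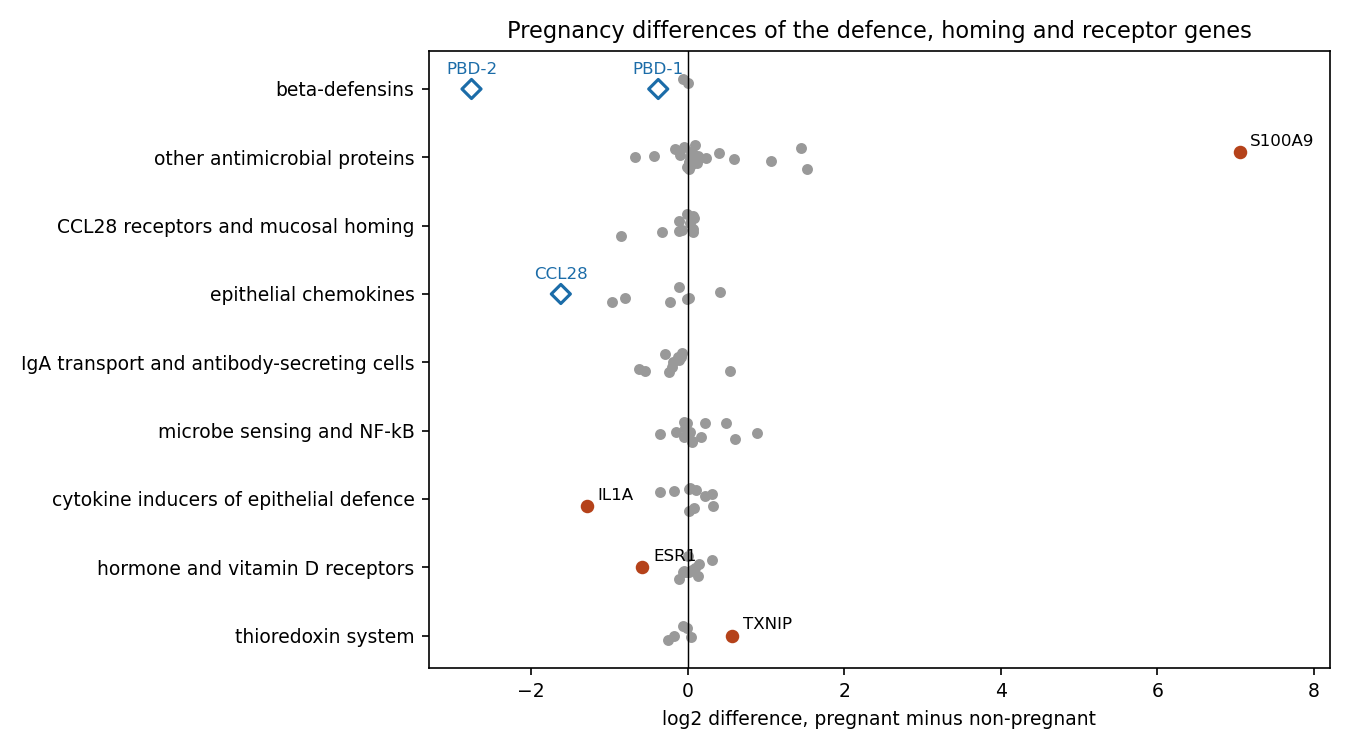
Pregnancy difference (x axis, log2, pregnant minus non-pregnant) of the measured genes of the 9 lists (y axis), 1 point per gene. Red points with names passed an adjusted p under 0.05 (S100A9, IL1A, ESR1 and TXNIP), grey points did not, and open blue diamonds are PBD-2, PBD-1 and CCL28, which are shown as a description and were not tested. PBD-2 at -2.76 and CCL28 at -1.62 lie to the left of all the grey points.

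The partners of CCL28 gave no calls. Of 11 measured receptor and homing genes, 0 passed the test in pregnancy and 0 had an unadjusted p under 0.05 (limma). CCR3, a receptor of CCL28, had log2 values of 4.26 to 6.57 in non-pregnant and 4.39 to 5.70 in pregnant sows, a difference of -0.33 ± 0.28 (SE, adjusted p = 0.553). CCL27, the chemokine that shares the receptor CCR10, ran from 5.21 to 5.51 and from 5.23 to 5.59, with a difference of -0.01 (adjusted p = 0.957). CCL25, which guides lymphocytes to the gut, differed by -0.10 (adjusted p = 0.523). In the median over the arrays, CCR3 stood at 29.2% of the ranked probe sets, CCL27 at 36.3% and CCL25 at 33.4%. In so dim a range, the lack of calls does not show that these transcripts were present and unchanged. CCR10 itself, CCL20 and the vitamin D receptor VDR were not analysed here.

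The other epithelial chemokines did not pass either: 0 of 7, with 0 at an unadjusted p under 0.05 (limma). CXCL2, which attracts neutrophils, was 7.67 in sow 7 and 3.78 to 5.06 in the other 11 sows, with a difference of -0.80 ± 0.49 (SE, adjusted p = 0.379). CXCL16, a membrane-bound chemokine, ran from 9.13 to 10.07 in non-pregnant and from 8.95 to 9.74 in pregnant sows (difference -0.22, adjusted p = 0.470).

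Of the 11 genes of IgA transport and antibody-secreting cells, 0 passed the test. An unadjusted p under 0.05 (limma) was reached by 2 of them, beside 5574 of all 23999 probe sets. The median difference of the 11 genes was -0.18, and 1 of the 11 had a positive one. PIGR, the carrier of IgA across epithelium, averaged 6.50 ± 0.566 over the pregnant sows and 7.12 ± 0.654 over the non-pregnant ones (SD, n = 6 each), a difference of -0.62 with an adjusted p of 0.241. Its highest value was in sow 7, at 8.22, and its lowest in sow 10, at 5.89. Its breed difference was not called over all sows (adjusted p = 0.468) and was called without sow 7 (adjusted p = 0.0398). JCHAIN, the chain that joins IgA molecules, was 8.88 ± 0.453 and 9.12 ± 0.873 (adjusted p = 0.768). CD38 and XBP1, both prominent in plasma cells, differed by -0.54 (adjusted p = 0.128) and -0.29 (adjusted p = 0.181).

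Of 25 measured other antimicrobial proteins, 1 rose and 8 had an unadjusted p under 0.05 (limma), beside 5574 of all 23999 probe sets. Without sow 7, and likewise without sow 12, 3 rose and 1 fell. The share of all probe sets that rose was 4.61% without sow 7, 5.0% without sow 12 and 3.95% with all sows. In the same order, 1098, 1425 and 945 of the 23999 probe sets fell. S100A9, a subunit of the antimicrobial complex calprotectin, was 12.06 to 12.79 in 5 pregnant sows and 7.72 in sow 12, and 3.16 to 3.91 in 5 non-pregnant sows and 9.35 in sow 7. The 2 sows that departed from their arm in PBD-2 thus also did so in S100A9, in the opposite direction. The S100A9 difference was 7.05 ± 1.04 (SE, adjusted p = 0.00517), and it passed the test without any 1 sow. Its size is not a measured fold, since the lower values lie where an absent and a weak transcript cannot be told apart. SLPI, a protease inhibitor of mucosal secretions, was 13.70 in sow 7, with 8.57 to 11.67 among the other non-pregnant sows, and 10.57 to 12.96 in pregnant sows. Its difference of 1.45 had an adjusted p of 0.199, and of 0.0238 without sow 7.

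Among the cytokines known to induce epithelial defence, 1 of 11 fell. IL1A, which encodes interleukin-1 alpha, was 6.97 to 7.66 in non-pregnant and 5.59 to 6.87 in pregnant sows, so the arms did not overlap, as was so for 3.0% of genes in this direction. Its difference was -1.28 ± 0.19 (SE, adjusted p = 0.00584), and it passed the test without any 1 sow. None of the 15 microbe-sensing genes was called over all sows. Of them 2 had an unadjusted p under 0.05 (limma), beside 5574 of all 23999 probe sets. TLR4, a receptor of bacterial lipopolysaccharide, was 8.31 in sow 7, with 6.24 to 7.12 among the other non-pregnant sows, and 7.26 to 8.70 in pregnant sows (difference 0.88 ± 0.27 (SE), adjusted p = 0.0640). LY96, its co-receptor, differed by 0.61 (adjusted p = 0.202). Without sow 7, 6 of the 15 rose, TLR4 and LY96 among them, and over all lists 12 genes rose in place of 2. The share of all probe sets that rose was 4.61% without sow 7 and 3.95% with all sows.

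Of 12 hormone and vitamin D receptor genes, 1 fell in pregnancy. ESR1, the oestrogen receptor alpha, was 7.28 to 7.93 in non-pregnant and 6.73 to 7.26 in pregnant sows. The arms did not overlap, as was so for 3.0% of genes in this direction, but non-pregnant sow 7 (7.28) and pregnant sow 8 (7.26) nearly met. The difference was -0.58 ± 0.14 (SE, adjusted p = 0.0257), and the call was lost without sow 2, 5, 6, 9 or 10, where the adjusted p was at most 0.0654. PGR, the progesterone receptor, differed by -0.11 (adjusted p = 0.398). Of 6 thioredoxin genes 1 rose: TXNIP, which binds thioredoxin, was 11.71 to 12.17 in non-pregnant and 12.27 to 12.71 in pregnant sows. Its difference was 0.57 ± 0.10 (SE, adjusted p = 0.00733), without overlap, as was so for 1.54% of genes in this direction. TXN, thioredoxin, which can reduce the disulphide bonds of human beta-defensin 1, differed by -0.25 ± 0.08 (SE, adjusted p = 0.0729).

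Between the breeds, 2 of the 98 genes were higher and 2 lower in Landrace, against 2.03% and 3.24% of all genes. An unadjusted p under 0.05 (limma) was found for 15 of the 98, beside 4842 of all 23999 probe sets. WFDC2, a secreted protein of the same inhibitor family as SLPI, was 10.87 to 11.76 in Landrace and 8.09 to 10.53 in Yorkshire sows, with a difference of 2.07 ± 0.35 (SE, adjusted p = 0.00664). RNASE4, a secreted ribonuclease, differed by 0.53 ± 0.11 (SE, adjusted p = 0.0142), with overlap. PGR was 6.02 to 6.44 in Landrace and 6.58 to 6.84 in Yorkshire sows, a difference of -0.40 ± 0.07 (SE, adjusted p = 0.00906). RXRB, a retinoid receptor, differed by -0.38 ± 0.09 (SE, adjusted p = 0.0252), and that call was lost without sow 1, 6, 11 or 12. Beside these breed differences, the 3' minus 5' difference of GAPDH signals on the control probe sets, which reflects how intact the RNA is, was 0.869 to 1.25 in Landrace and 1.31 to 1.63 in Yorkshire sows. It did not overlap between breeds. Between the arms it averaged 1.36 ± 0.204 over pregnant and 1.20 ± 0.289 over non-pregnant sows (SD, n = 6 each), and its part in the pregnancy results was not tested beyond the covariate fit below. In Landrace sows it was 1.15 to 1.25 in pregnancy and 0.869 to 1.04 otherwise, with no overlap, and in Yorkshire sows 1.49 to 1.59 and 1.31 to 1.63.

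With the GAPDH difference as a covariate, limma called 0 of 23999 probe sets in pregnancy, 0 for breed and 0 for the interaction. In that fit 4485 probe sets had an unadjusted p under 0.05 for pregnancy, 1900 for breed and 933 for the interaction. The pregnancy difference was then -2.97 ± 0.95 for PBD-2, -1.36 ± 0.63 for CCL28 and -0.35 ± 0.13 for PBD-1 (SE).

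The genes whose pattern was most like that of each probe set were found by Pearson r over the 12 arrays among 6764 genes. All points share the split into arms, so the range of r within the groups is given beside it. For PBD-2 the highest were ZC4H2 (0.94), ATP5D (0.94), RALY (0.94), GARNL3 (0.93) and NR2F6 (0.93), with 0.83 to 0.94 within groups. GARNL3, for example, was 5.71 in sow 7, with 7.06 to 7.92 among the other non-pregnant sows, and 7.09 in sow 12 and 5.27 to 6.02 in the other pregnant sows. The most opposite were PROS1, which encodes protein S of the clotting system (-0.94), KLF9, a transcription factor (-0.94), and AGTR1, an angiotensin receptor (-0.93), with -0.90 to -0.86 within groups.

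For CCL28 the highest were CREB3L4, a transcription factor of the endoplasmic reticulum (0.96), TMEM100, a transmembrane protein (0.96), RLBP1 (0.95), SRP9 (0.95) and PDLIM4 (0.94), with 0.90 to 0.94 within groups. TMEM100 was 10.80 to 11.03 in the non-pregnant sows. In pregnant sows it was 10.53 in sow 8, 10.34 in sow 12, 8.92 in sow 2, 8.55 in sow 4, 7.64 in sow 10 and 7.41 in sow 6. Sow 8 was the highest pregnant sow in TMEM100 as in CCL28, and sows 6 and 10 the lowest. TMEM100 was picked for this likeness, so the shared order is no separate result. The most opposite to CCL28 were SERTAD2 (-0.93), PAPD5 (-0.91) and GNAI1 (-0.90), with -0.93 to -0.82 within groups. For PBD-1 the highest were CHMP4A (0.91), DYNLT1 (0.90), APOO (0.89), NDUFA8 (0.89) and LOC100627892 (0.88). Within groups these were 0.55 for NDUFA8, 0.65 for APOO and 0.78 to 0.87 for the other 3. The lowest were AKAP2 (-0.91), DKK1 (-0.89) and MEIS2 (-0.87), with -0.73 to -0.60 within groups. No gene was on the lists of more than 1 of the 3 probe sets.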

How the data were processed

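The deposited table held log2 expression values per probe set and array, made by the authors with RMA, and the submitters' processing notes also name affy and limma, without versions. RMA makes the distributions of the arrays alike, so a difference is measured against the rest of the same array, and weak signals understate fold changes. The number of arrays limits the precision. Of the probe sets, 124 manufacturer controls were left out.

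The platform annotation gave 1 symbol to 10069 probe sets, several to 198 and none to 13732, which were not named. The probe set with the highest mean stood for a gene, except for DEFB1, where both are given. All 3 identifiers were found in the RefSeq gene table of Sscrofa11.1. No build was given for the array, so no coordinates are reported.

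Tests were two-sided moderated tests of limma 3.58.1 (R 4.3.3), with p-values adjusted by Benjamini and Hochberg over 23999 probe sets and called under 0.05. Pregnancy and breed were additive terms over 12 arrays (9 residual degrees of freedom), and breed within arms and the interaction came from a fit of 4 groups (8 residual degrees of freedom). The procedure was run on simulated data with independent noise for each probe set and array. That run does not cover departures of single sows shared by many genes.

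The genes and lists were chosen with earlier results of these data known. Named were the 3 probe sets, a fixed set of genes (CCR3, CCL27, CCL25, PIGR, JCHAIN, ESR1, PGR, TXN), the called list members with the smallest p (up to 4 for pregnancy and 3 for breed; 2 where none was called), and the 5 most and 3 least alike genes; not every gene so chosen is printed. The labels describe separate animals; whether tissue from the sites within a uterus was pooled is not given in the sources used here. Alternatives were cyclic loess, median centring, leaving out dim probe sets (fewer than 3 arrays above the overall median, which removed PBD-1 and kept PBD-2 and CCL28), a robust prior with an intensity trend, weighting of arrays, the GAPDH covariate, 1 term in place of both, a threshold of 0.01, the mean of a gene's probe sets, and leaving out sows.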

Additional observations from a re-analysis of the deposited data

Results flagged for a closer look

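Within the 6 sows of an arm, a value was looked at again where its gap to the nearest other sow took up more of the range than Dixon's 95% limit (0.625 for 6 sows). That was so for 21 of 156 groups tested, and 14 of the 21 were non-pregnant sow 7. Chance flags about 1 in 20 independent groups, but these share sows, hold related markers and include genes picked for likeness to PBD-2, such as AGTR1 and RALY, so that rate does not apply to the count. PBD-2 was the only probe set of the 3 among them: its value in sow 7, 8.2538, lay below the other non-pregnant sows, 11.0942 to 11.8105.

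The neutrophil list had 2 measured markers and the gland list 5. In sow 7 the marker means stood above those of the other non-pregnant sows for macrophages (9.1868), neutrophils (8.0945), leucocytes (7.3245) and gland (8.7299). So did S100A9 (9.3542), TLR2 (8.2854), LY96 (8.9759), CCL2 (10.6668), CXCL2 (7.6658), CEBPD (10.9396), AGTR1 (8.4928) and MADCAM1 (4.4514), while RALY (9.3787) stood below. The MADCAM1 values lay so low on the arrays that an absent and a weak transcript cannot be told apart.

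Pregnant sow 12 stood below the other pregnant sows in S100A9 (7.7247), LY96 (7.3919) and DEFB125 (3.2447). For DEFB125 all values lay where an absent and a weak transcript cannot be told apart. The trophoblast mean was high in pregnant sow 10 (6.683), and the ciliated cell mean, of 2 measured markers, in pregnant sow 8 (8.3239). CYP24A1 was high in pregnant sow 4 (7.3276), and DYNLT1 was low in pregnant sow 6 (9.416). The causes were not tested.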

How the results depend on the processing

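No paired analysis was possible because the labels give no pairs and the groups share no replicate numbers. The pregnancy difference kept its sign for PBD-2, CCL28 and PBD-1 under every alternative run. The breed difference of CCL28 in pregnant sows changed sign without sow 10, and it was called without sow 8 and without sows 7, 8 and 12. The other breed and interaction results that changed sign were uncalled throughout. The breed difference of PBD-1 in pregnant sows was -0.17 with the GAPDH covariate, -0.0097 with array weights, -0.033 without sows 7 and 12, -0.10 without sows 7, 8 and 12, and -0.054 to 0.16 with 1 sow left out. The interaction of PBD-2 was 0.42 with array weights, 0.092 without sows 7, 8 and 12, and -1.18 to 0.89 with 1 sow left out. The breed difference of CCL28 was -0.54 to 0.18 with 1 sow left out; in non-pregnant sows it was -0.20 with the GAPDH covariate, and in pregnant sows -1.53 to 0.10 with 1 sow left out and -1.31 without sows 7, 8 and 12.

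Of the list genes, 2 rose in pregnancy; this was 0 with the GAPDH covariate, 7 with array weights, 15 without sows 7 and 12, 17 without sows 7, 8 and 12, and 2 to 12 with 1 sow left out. The share of all probe sets that rose moved too, from 3.95% to 0, 7.07%, 6.22% and 7.67% under the first 4 settings. The 2 that fell were 0, 4, 3 and 4 under the same settings, 1 at the threshold of 0.01, and 1 to 4 with 1 sow left out. Of all 23999 probe sets, 945 fell with all sows and 0, 1943, 1721 and 2222 under the same 4 settings. With 1 sow left out, 437 to 1425 did. For breed, 2 higher became 0 with the covariate, 4 without sows 7, 8 and 12, 1 at 0.01, and 2 to 4 with 1 sow left out. The 2 lower became 0, 2, 1, and 1 to 4. Of all probe sets, 533 were higher and 703 lower with all sows, and 0 of either with the covariate. Without sows 7, 8 and 12, 447 were higher and 468 lower. With 1 sow left out, 332 to 613 were higher and 465 to 729 lower. In the covariate fit 18 list genes had an unadjusted p under 0.05 (limma) for pregnancy and 7 for breed. Of all 23999 probe sets, 4485 and 1900 did. Without sows 7, 8 and 12, 2 list genes had a lower interaction (S100A8 and S100A12, named after their values were seen). In that fit 49 of all 23999 probe sets had a lower interaction, and with all sows 0 did. The causes were not tested; fits without sows tested fewer animals.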
